A study of Brassica napus with 16 samples.

Results

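The genes described here lie in 1 long stretch of chromosome C02 of Brassica napus (oilseed rape), from BnaC02g34860D to BnaC02g42120D when genes are ordered by the number in their identifier. The stretch holds 727 listed genes. A gene counted as a member when its FPKM (fragments mapped to a transcript, scaled by its length and by library depth) was 1 or more in at least 2 of the 16 libraries, which 291 genes met, of 54206 in the whole series. The edges were drawn where expression in cultivar 2063A fell below that in cultivar B409, so the cultivar difference of the members is what chose them. It is given below as a description, and the statistics of single genes for it are not a test of the stretch.

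Total RNA was sequenced from 2 cultivars, 2063A and B409, in 4 tissues with 2 libraries each. Young leaves came from hydroponic seedlings at 2 weeks and roots from filter-paper cultures at 7 days, both in a phytotron. Flower buds of at most 2 mm and siliques (seed pods) of 3 to 5 cm came from field plants. Age and growing place differ with tissue and cannot be told apart from it, and nothing in the labels says that the 2 libraries of a group are separate plants, so p-values measure only the spread between these libraries.

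Brassica napus carries the A subgenome of Brassica rapa and the C subgenome of Brassica oleracea, and chromosomes A02 and C02 correspond to each other along much of their length. Many genes therefore have a close copy on the other subgenome. Pieces of corresponding chromosomes are known to have been exchanged in some cultivars, so that runs of neighbouring genes can differ in copy between cultivars. FPKM values alone do not separate a copy that is absent from one that is present and silent, and reads of near-identical copies can be split between them in counting, whose settings were not given. No gene product is named here for these identifiers, and they are described by position and expression.

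The identifier order could be compared with another assembly for a few genes. Of the listed genes of the stretch, 32 (18 of them members) matched a symbol in the RefSeq gene table of the assembly Da-Ae. All 32 were placed on chromosome C2 there, and all 31 neighbouring pairs stood in the same order. The share of listed genes that passed the FPKM filter was 40.0% in the stretch and 40.1% in the rest of C02, where 1671 of 4166 passed. Of the 436 genes that did not pass, 297 were listed at 0 in all 16 libraries, and 27 reached FPKM 1 in a single library. Their FPKM summed to a mean of 5.19 per library in 2063A and 21.2 in B409.

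Over the whole stretch, 2063A carried far less RNA of these genes than B409 in every tissue. The FPKM of all 291 members summed to 256 and 514 in the 2063A young leaf libraries and to 3746 and 4137 in those of B409. In flower bud the sums were 679 and 715 in 2063A against 2864 and 2847 in B409, and in silique 695 and 737 against 3134 and 3078. In root the 2063A sums were highest, 1262 and 1241, and the B409 sums lowest, 2648 and 2646. The cultivars did not overlap in any tissue, and the gap was widest in young leaf and narrowest in root. In the rest of C02 the sums ran from 12066 to 13453 in the 2063A libraries and from 13637 to 14536 in the B409 libraries. In such bulk tissue, fewer cells that express a gene and less RNA per cell cannot be told apart.

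The number of members with FPKM of 1 or more was also lowest in 2063A young leaf and, within 2063A, highest in root. In 2063A it was 35 and 64 for young leaf, 104 and 114 for flower bud, 98 and 98 for silique, and 150 and 148 for root, against 191 to 226 in the 8 B409 libraries. The libraries differed up to 2.76-fold in depth, as recovered from the steps between low FPKM values. The first 2063A young leaf library stood apart among them. It listed 205 of the 291 members at 0 where its replicate listed 101, with relative depths of 1.28 and 2.71, and its log2(FPKM + 1) values over the members correlated with those of its replicate at r = 0.79, against 0.95 to 0.99 in the other 7 groups. The shallowest library, B409 flower bud replicate 2 with a relative depth of 1, listed 43 members at 0, but in the cultivar where the members were higher. Within 2063A, silique replicate 1 with a relative depth of 1.01 listed 84 members at 0, and silique replicate 2 with 2.08 listed 56. The part of depth in the zeros of that leaf library was not tested. Tissue means of 2063A young leaf hold this library, and the main ones are repeated below with the other leaf library alone.

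**Figure D1:**
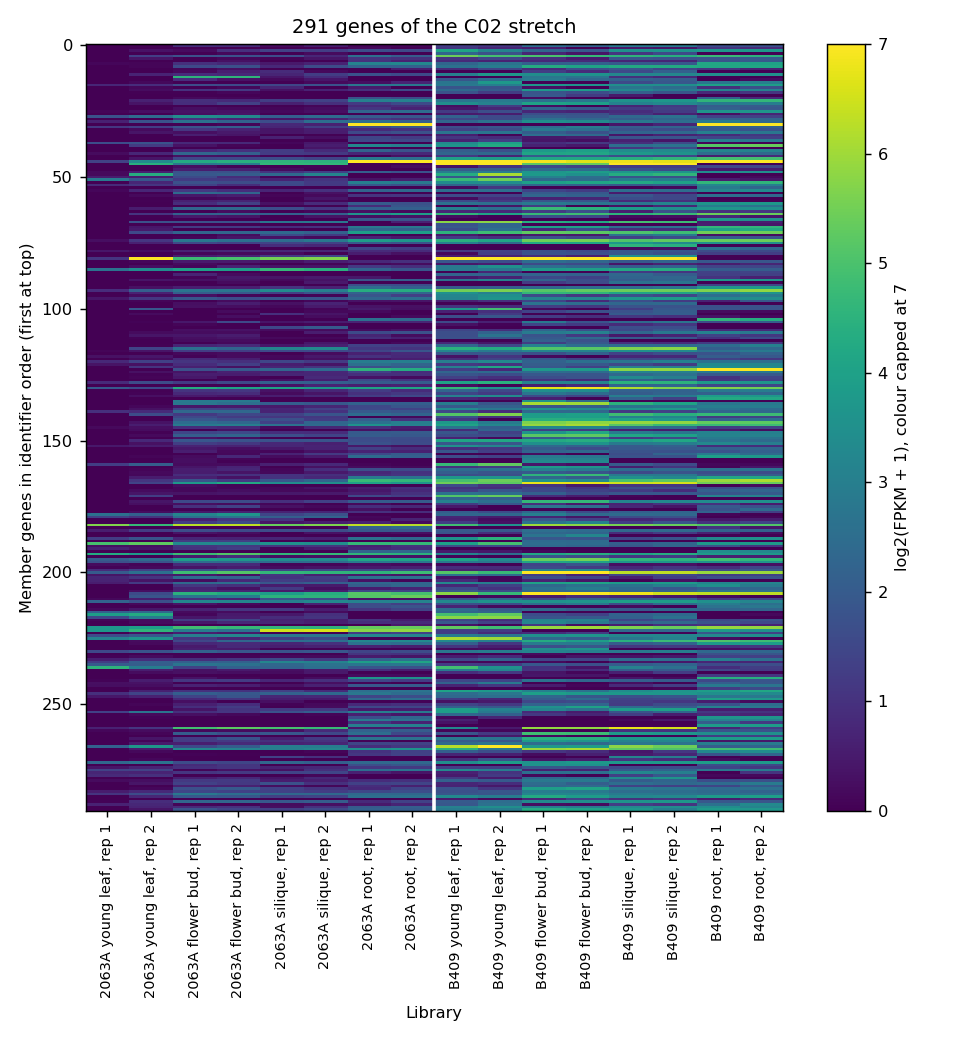
log2(FPKM + 1) of the 291 members (rows, in identifier order from top to bottom) in each of the 16 libraries (columns; 2063A left of the white line, B409 right), with the colour capped at 7. The 2063A columns are darker throughout and darkest in young leaf replicate 1, where 205 members were listed at 0, and single bright rows cross both cultivars.

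Differences are given as 2063A minus B409 on the log2(FPKM + 1) scale, on which changes of weakly expressed genes come out too small. A gene was called when the adjusted p of limma (fitted over all 54206 genes, with Benjamini-Hochberg adjustment) was below 0.05 and the log2 difference was at least 1. By this rule, 170 members were lower in 2063A in young leaf, against 5% of all tested genes, and 3 were higher, against 4.33%. In flower bud 176 were lower (5.52% of all tested genes) and 7 higher (6.78%). In silique 177 were lower (4.72%) and 5 higher (4.32%), and in root 119 were lower (5.43%) and 7 higher (5.36%). A limma fit of the 4 young leaf libraries alone called 0 members lower, and 164 at an unadjusted p below 0.05 and the same log2 threshold (4.24% of all tested genes), with the smallest adjusted p of any gene at 0.0506. Since the stretch was chosen on this contrast, nothing is read from these counts against the background. Over the members the median differences for young leaf, flower bud, silique and root were -1.29, -1.33, -1.37 and -0.85, where the medians over all tested genes were 0, 0.08, 0 and 0.

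Averaged over the 4 tissues, the median difference over the members was -1.15, with quartiles of -1.77 and -0.67, and 268 of the 291 lay below 0. On this average 170 members were called lower, against 3.72% of all tested genes, and 3 higher, against 3.79%. The 170 made up 61.8% of all genes called lower on C02. The difference was negative in all 4 tissues for 212 members, positive in all 4 for 11, and mixed for 68. In 84 members, each of the 8 libraries of 2063A lay below each of the 8 of B409 (1.81% of all tested genes), and 2 members showed the opposite (2.12%). All 8 libraries of 2063A listed 7 members at 0 (0.731% of all tested genes), and no member was at 0 in all 8 B409 libraries (1.06%).

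The largest falls were in genes that B409 expressed in every tissue or in all but 1. BnaC02g35030D had FPKM of 0 and 1.45 in 2063A young leaf, 2.36 and 2.39 in flower bud, 2.12 and 0.685 in silique, and 4.99 and 3.08 in root. Its B409 values were 42.2 and 28.7, 30.6 and 24.8, 22.6 and 19.8, and 25.8 and 21.7 in the same order. No 2063A library came near a B409 library, and the mean difference was -3.30 ± 0.19 (SE). BnaC02g38680D reached 48.0 and 54.7 in B409 flower bud and 58.1 and 55.8 in B409 silique, while 2063A had 4.61 and 4.04 and then 1.56 and 3.85. Its mean difference was -3.23 ± 0.15. BnaC02g38620D ran from 13.7 to 48.8 over the B409 libraries and from 0 to 4.46 over those of 2063A, a mean difference of -3.15 ± 0.20.

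BnaC02g37040D had the highest FPKM of all members in B409 young leaf and silique, and it was listed at 0 in all 4 root libraries. In B409 it had 1472 and 1942 in young leaf, 137 and 153 in flower bud, and 654 and 665 in silique. In 2063A it had 1.11 and 139 in young leaf, 26.8 and 30.9 in flower bud, and 45.2 and 49.9 in silique. The cultivars did not overlap in any of the 3 tissues with expression, but the 2 leaf libraries of 2063A lay far apart, and the SE of its mean difference of -3.17 was 0.64. BnaC02g36240D had the same profile at a lower level, with 253 and 203 in B409 young leaf against 0 and 20.5 in 2063A. It too was listed at 0 in every root library, and had 140 and 138 against 23.6 and 23.5 in silique.

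Because a log2 difference depends on the pseudocount, the members were also described by the ratio of FPKM in a 2063A library to the mean of the 2 B409 libraries of that tissue, for members with a B409 mean of 5 or more. The median ratio was low in each 2063A library and differed between tissues. In the 2 young leaf libraries the median over 84 members was 0 (quartiles 0 and 0.102) and 0.0756 (0.0407 and 0.165), with 46 and 2 members at 0. In the 2 flower bud libraries it was 0.147 and 0.139 over 109 members, and in the 2 silique libraries 0.150 and 0.146 over 100 members. In the 2 root libraries it was 0.342 (quartiles 0.263 and 0.426) and 0.337 (0.256 and 0.441) over 113 members. The replicates lay close together in flower bud, silique and root and apart in young leaf. In the rest of C02 the medians were between 0.814 and 0.981 in all 8 libraries. Genes outside the stretch that were called lower in 2063A in all 4 tissues, a set picked after seeing the ratios, had medians of 0.101 and 0.161 in the leaf libraries and 0.140 and 0.128 in the root libraries. Their root medians lay below those of flower bud and silique, which ran from 0.155 to 0.186. The members picked by the same rule, which requires a call in root as well, had medians of 0 and 0.0523 in the leaf libraries, 0.119 to 0.124 in flower bud and silique, and 0.311 and 0.292 in root.

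**Figure D2:**
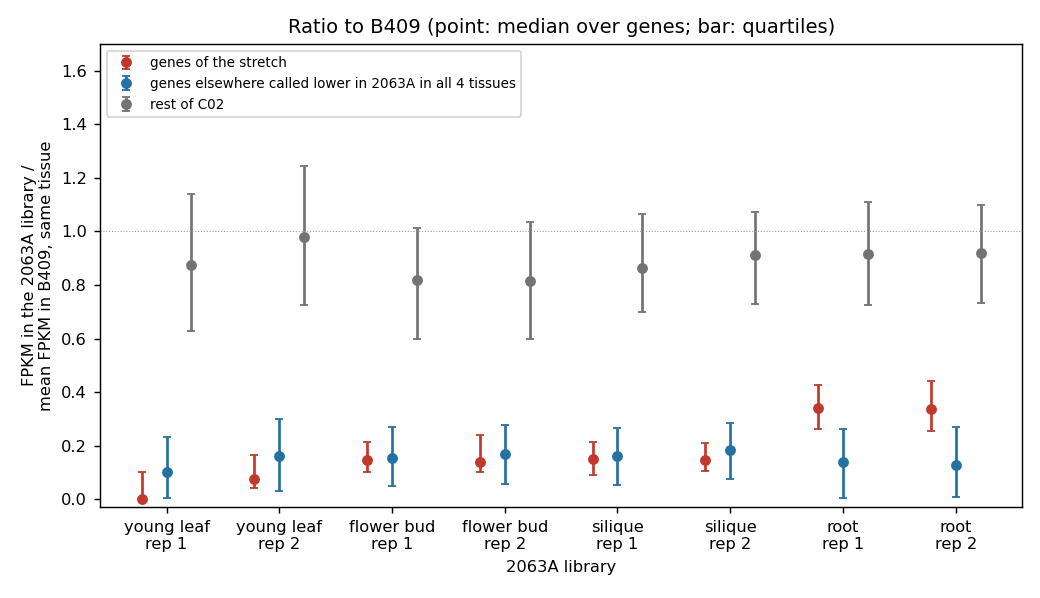
Ratio of FPKM in each 2063A library (x axis) to the B409 mean of the same tissue (y axis), as the median over genes (points) with quartiles (bars), for the stretch, for genes elsewhere called lower in 2063A in all 4 tissues, and for the rest of C02. The stretch rises from 0 and 0.0756 in the leaf libraries to 0.342 and 0.337 in the root libraries, while the other genes called lower stay between 0.101 and 0.186. The stretch is shown with all its members, and those of them called lower in all 4 tissues had 0 and 0.0523 in leaf and 0.311 and 0.292 in root.

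Taking tissue means, 79 of 84 young leaf, 98 of 109 flower bud, 91 of 100 silique and 92 of 113 root ratios were under 0.5, where 11.4%, 10.7%, 8.51% and 9.85% of all tested genes with such a B409 mean were. Ratios under 0.1 were found for 58, 27, 29 and 3 members in that order, which is 69.0%, 24.8%, 29.0% and 2.65% of them, against 2.74%, 1.47%, 1.38% and 2.27% of all tested genes. In root the share under 0.1 was thus near that of all genes. With the second leaf library alone, 78 of 84 leaf ratios were under 0.5 and 53 under 0.1, against 12.6% and 2.56% of all tested genes. In the tissue where B409 was highest, 178 members had a B409 mean of 5 or more. Their median ratio was 0.194, with 52 below 0.1, 56 from 0.1 to 0.25, 50 from 0.25 to 0.5, and 20 above that.

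The change of the ratio with tissue was also seen within single genes. In B409, 48 members had a mean of 5 or more in all 4 tissues. Their median ratios for young leaf, flower bud, silique and root were 0.0354, 0.161, 0.157 and 0.344. The ratio was highest in root for 46 of these 48 genes and lowest in young leaf for 43. With the second leaf library alone the leaf median was 0.0688, and the ratio was lowest in young leaf for 40 and highest in root for 46. In the rest of C02 the median ratio of tissue means was 0.953 in young leaf and 0.940 in root. The counts of highest and lowest tissue were not made over all tested genes. All 48 genes were measured in the same libraries, so they are not separate observations of a tissue.

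**Figure D3:**
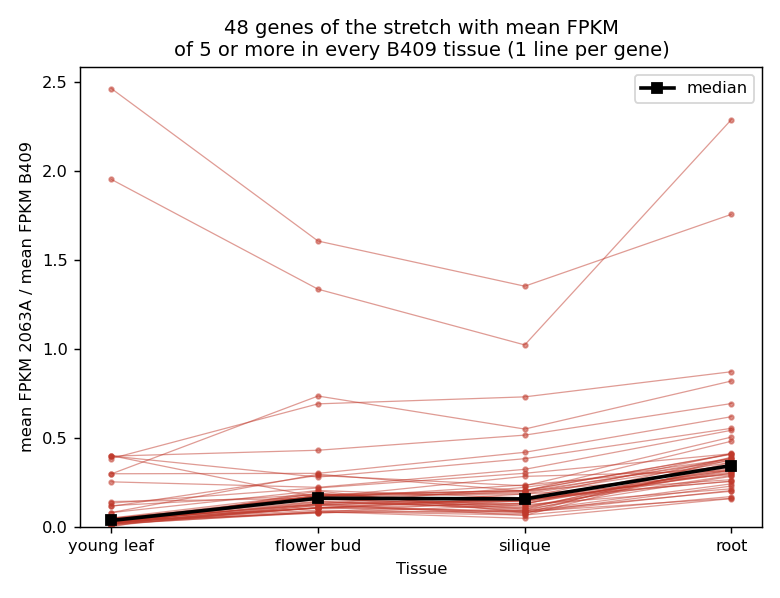
Ratio of mean FPKM in 2063A to that in B409 (y axis) in the 4 tissues (x axis) for the 48 members with a B409 mean of 5 or more in each, with 1 line per gene and the median in black. The median rises from 0.0354 in young leaf (0.0688 with the second 2063A leaf library alone) to 0.344 in root, and 2 genes stay above 1.

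How a gene's cultivar difference varies between tissues was not used to choose the stretch, and it was tested gene by gene. The contrast, which was chosen after the ratios had been seen, took the cultivar difference in root minus its mean over the other 3 tissues. A positive value is called a smaller fall in root here, but it also arises from a rise in root. It arises too when a gene falls in other tissues and is not expressed in root, as in BnaC02g37040D. The members were chosen for a cultivar difference, while 76.8% of all tested genes were called in no tissue, so the share over all genes is not a like background. By limma at the same thresholds, the contrast was positive for 66 of the 291 members, against 2.69% of all tested genes. It was negative for 12, against 3.12%. The median over members was 0.57, beside -0.01 over all tested genes. Leaving out 1 library at a time gave 52 to 76 members. With limma voom on the whole fragments recovered from the FPKM values, 98 of 271 members were called positive, against 1.93% of genes, and with a pseudocount of 0.1 it was 65, against 3.47%. The same contrast for young leaf was negative for 54 members, against 2.74%, and positive for 7, against 1.38%. Without the first 2063A leaf library, the young leaf contrast was negative for 37 members, against 2.86% of all tested genes, and the root contrast was positive for 63, against 2.76%. For flower bud it was negative for 23 (2.51%) and positive for 17 (3.65%), and for silique negative for 21 (1.45%) and positive for 5 (1.31%).

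BnaC02g39140D shows this pattern in a broadly expressed gene. In 2063A it had 0 and 1.66 in young leaf, 12.2 and 17.8 in flower bud, 9.50 and 9.70 in silique, and 14.9 and 11.8 in root. B409 had 42.7 and 36.8, 107 and 106, 87.6 and 93.2, and 43.7 and 40.4. Both root libraries of 2063A lay below those of B409, but by much less than in young leaf. Its log2 difference was -4.64 in young leaf and -1.59 in root, and the root contrast was 1.91 ± 0.39 (limma adjusted p = 0.00689). Without the first 2063A leaf library these were -3.93 for young leaf and 1.68 ± 0.20 for the root contrast (limma adjusted p = 0.000213). BnaC02g36140D gave 0.97 ± 0.18 (limma adjusted p = 0.00391), from 0 and 0.306 in 2063A young leaf against 15.0 and 14.1 in B409, and from 6.51 and 5.16 in root against 28.8 and 29.6.

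BnaC02g36210D was the member with the highest root level. It had 153 and 153 in 2063A root against 367 and 380 in B409 root, but 1.60 and 9.45 against 294 and 199 in young leaf. In flower bud it had 18.2 and 20.4 against 116 and 101, and in silique 22.3 and 21.6 against 112 and 104. The cultivars were apart in all 4 tissues, and the root contrast was 2.12 ± 0.52 (limma adjusted p = 0.0194). BnaC02g42100D, next to the far edge, went the other way. It had 0.401 and 0.649 in 2063A root against 5.12 and 8.80 in B409, and values under 0.2 in both cultivars in flower bud, and its root contrast was -1.47 ± 0.28 (limma adjusted p = 0.00386).

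A general test of whether the cultivar difference depended on tissue, limma's moderated F over the 3 interaction contrasts, passed an adjusted p of 0.05 for 177 members, against 20.9% of all tested genes and 395 of the 1671 in the rest of C02. On the log2(FPKM + 1) scale this test also responds to where a gene is expressed at all. Of the 168 interaction genes with a negative mean difference, 117 had their largest fall in the tissue where B409 was highest, as did 55 of the 100 members below 0 without an interaction call. With limma voom on recovered fragments it passed for 120 of 271 members (10.3% of genes), and with a pseudocount of 0.1 for 115 of 291 (14.9%).

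The 5 members with the smallest interaction p were each expressed almost solely in 1 tissue. BnaC02g36890D was found in silique only, with 22.5 and 20.4 in B409 and 0.885 and 0.713 in 2063A, with 0 in each of the 12 libraries of other tissues (limma interaction adjusted p = 9.74e-09). BnaC02g39020D had 9.29 and 8.62 in B409 flower bud and 0.192 and 0.0381 in 2063A flower bud, and BnaC02g38990D had 7.65 and 7.40 against 0.203 and 0.0646. Both were at 0 elsewhere. BnaC02g40480D was also mainly a flower bud gene, with 9.96 and 11.03 in B409 and 0.499 and 0.432 in 2063A. BnaC02g39320D had 4.08 and 3.38 in B409 young leaf and 0 in each of the other 14 libraries, both 2063A young leaf libraries among them.

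The tissue in which a member was highest differed between the cultivars. Of the 284 members with a mean FPKM of 1 or more in some B409 tissue, 108 (38.0%) were highest in flower bud and 84 (29.6%) in root. Of the 191 with such a mean in 2063A, 121 (63.4%) were highest in root and 41 (21.5%) in flower bud. These are not the same genes, since fewer members reach that mean in 2063A. Over the 186 members that reached it in both cultivars, 118 (63.4%) were highest in root in 2063A and 67 (36.0%) in B409, and 40 (21.5%) and 68 (36.6%) in flower bud. Over the 47823 tested genes that did so, the root shares were 33.7% and 32.6%. Against the mean of the other tissues, within B409, limma called 33 members higher in young leaf (10.6% of all tested genes), 59 higher in flower bud (15.7%), 36 higher in silique (10.3%) and 55 higher in root (19.2%). Within 2063A the counts were 10 (9.24%), 18 (14.3%), 13 (9.32%) and 87 (18.8%). The share of members called higher in root was thus near the background in B409, at 18.9%, and above it in 2063A, at 29.9%.

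With both cultivars in the fit, 18 members were called higher in young leaf than in the other tissues (9.71% of all tested genes) and 59 lower (20.5%). In flower bud 37 were higher (14.1%) and 25 lower (9.28%), in silique 22 higher (9.34%) and 11 lower (5.61%), and in root 67 higher (18.7%) and 26 lower (14.9%).

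Several members were expressed mainly in the same tissues in both cultivars, at different levels. BnaC02g40120D was a leaf gene in both, with 14.4 and 18.3 in 2063A and 29.0 and 37.5 in B409, and at most 4.22 in any other library. BnaC02g40420D was higher in young leaf as well, with 7.59 and 11.4 in 2063A against 69.6 and 63.2 in B409. In BnaC02g38230D the root values were 22.3 and 19.1 in 2063A and 132 and 123 in B409, with silique next in both cultivars, at 3.94 and 4.48 and at 53.0 and 56.9. BnaC02g41520D was a flower bud and silique gene, with 29.3, 36.7, 29.9 and 25.7 in 2063A against 57.6, 57.3, 108 and 93.2 in B409. Its silique values lay above those of flower bud in B409, while in 2063A they overlapped. In each of these 4 genes the cultivars did not overlap in the tissue of highest B409 expression. BnaC02g39800D, highest in flower bud in both, had 27.3 and 34.0 there in 2063A and 144 and 136 in B409.

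The members did not fall evenly along the stretch. In 10 consecutive blocks of 29 members (30 in the last), the median difference was lowest in the fifth, from BnaC02g37960D to BnaC02g38740D, at -1.72, where all 29 members lay below 0. It was weakest in the ninth, from BnaC02g40590D to BnaC02g41550D, at -0.52, and in the seventh, from BnaC02g39360D to BnaC02g39820D, at -0.55. In the seventh block 22 of 29 members lay below 0, in the eighth 25 and in the ninth 24, where 2 and 1 members of the eighth and ninth were called higher. In the seventh block the median ratio to B409 was 0.397 over 7 genes in young leaf and 0.586 over 8 genes in root, against 0.0216 over 8 and 0.356 over 12 in the sixth block. In the ninth block this ratio was 0.142 over 6 genes in young leaf, 0.162 over 5 in flower bud and 0.509 over 11 in root. Its median log2 difference in flower bud was only -0.14, so the weak median there stood beside low ratios in its better expressed genes. The last block, up to BnaC02g42120D, had all 30 members below 0 and a median of -1.28. The longest unbroken run of members below 0 was 71, from BnaC02g37730D to BnaC02g39460D, followed by a run of 54 from BnaC02g35850D to BnaC02g37080D.

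**Figure D4:**
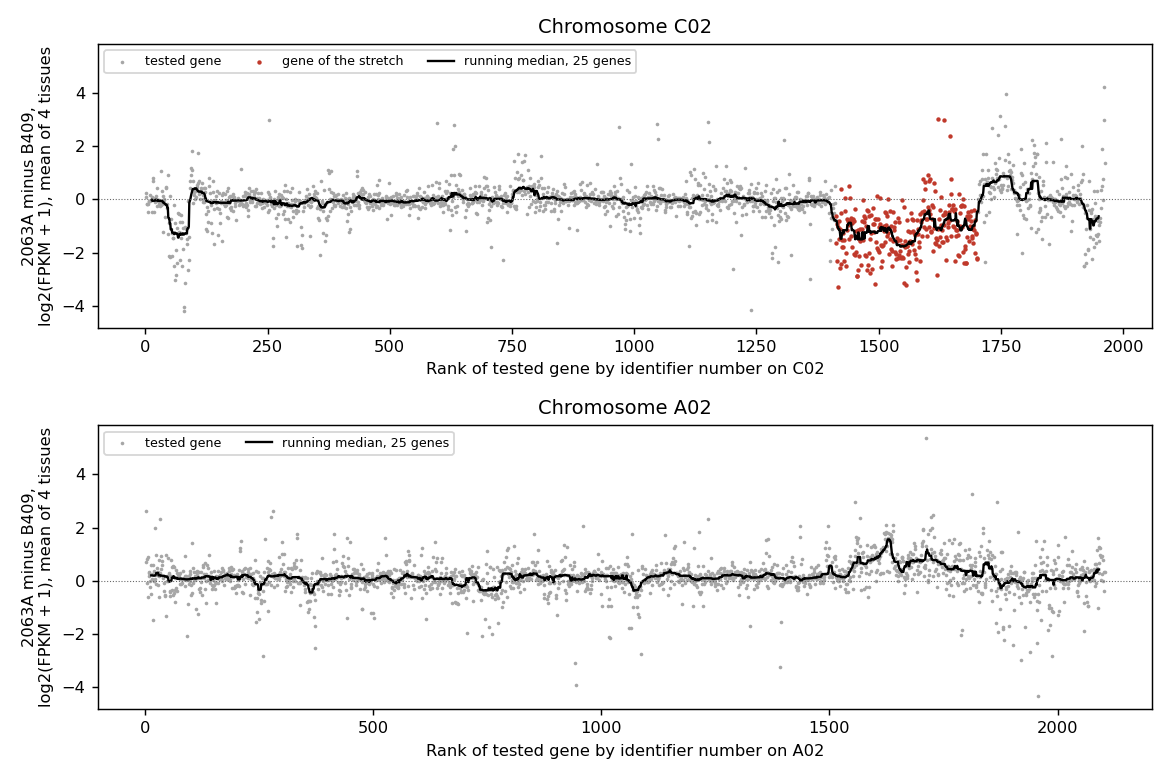
Mean difference over the 4 tissues (2063A minus B409, log2(FPKM + 1), y axis) for each tested gene of C02 (top) and A02 (bottom) in identifier order (x axis), with members of the stretch in red and the running median of 25 genes as a line. The line falls at the first edge, is lowest at -1.77, comes closest to 0 inside the stretch at -0.42, and lies above 0 just after the far edge.

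The edges were set on this same difference. The 20 tested genes before the stretch, from BnaC02g34380D to BnaC02g34840D, had a median difference of -0.15 with 3 called lower, and the first 20 members, up to BnaC02g35360D, had -1.50 with 14 called lower. The 20 tested genes after it, from BnaC02g42140D to BnaC02g42560D, had a median of 0.37 with 1 called lower and 3 called higher, and the last 20 members, from BnaC02g41700D, had -1.13 with 12 called lower and all 20 below 0. The first member, BnaC02g34860D, had at most 0.880 in any 2063A library and 3.48 to 5.97 in B409 flower bud and silique. The tested gene before it, BnaC02g34840D, overlapped between the cultivars in flower bud, with 3.35 and 3.58 in 2063A against 3.64 and 2.96 in B409. It was slightly higher in 2063A silique, with 6.88 and 7.72 against 6.001 and 6.46, and lower in 2063A root, with 3.27 and 2.39 against 7.24 and 4.44.

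At the far edge, BnaC02g42110D had 0.770 and 0.986 in 2063A flower bud against 7.19 and 6.57 in B409, and BnaC02g42120D, the last member, had 2.43 and 1.65 against 19.03 and 15.4. The next tested gene, BnaC02g42140D, was still lower in flower bud, with 0.980 and 0.779 against 5.31 and 4.30, but its silique values overlapped. BnaC02g42180D overlapped in every tissue, with 1.65 to 5.91 over the 2063A libraries and 2.67 to 5.67 over those of B409. Among the 20 tested genes before the first edge, the 3 called lower were BnaC02g34570D, BnaC02g34580D and BnaC02g34700D, with mean differences of -2.33, -1.52 and -1.11. Of the 20 listed genes just before that edge, 9 were tested, with a median of -0.50 and 8 of 9 below 0, whereas the 20 listed genes just after the far edge held 11 tested genes with a median of 0.12 and 3 below 0. The window of 25 tested genes with the lowest median elsewhere on C02 was near the start of the chromosome, from BnaC02g00950D to BnaC02g01270D, at -1.43. The highest there was from BnaC02g43280D to BnaC02g43900D, beyond the far edge, at 0.88 with 11 called higher. On A02 the highest was from BnaA02g28610D to BnaA02g28950D, at 1.55 with 21 of 25 called higher, and the lowest median was -0.44. Whether any of these windows correspond to the stretch was not tested.

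A few members did not follow the rest. On the mean over tissues 23 members lay above 0, and 19 had a difference of less than 0.25 in either direction. BnaC02g35830D, expressed almost solely in root, had 135 and 131 in 2063A root and 130 and 141 in B409 root. BnaC02g37200D was expressed in all tissues, with 14.9 and 14.3 in 2063A flower bud against 13.4 and 14.6 in B409, and 24.2 and 20.6 against 17.9 and 19.6 in silique. Both genes lay between members with negative differences, and their mean differences were 0.05 ± 0.07 and 0.13 ± 0.10. BnaC02g40780D varied more between leaf replicates, 22.1 and 6.68 in 2063A and 28.7 and 10.8 in B409, than between the cultivars there.

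Cultivar differences could also vary between tissues within a member, and in BnaC02g39460D they went opposite ways. BnaC02g39460D had 8.12 and 11.5 in 2063A flower bud against 7.05 and 4.40 in B409, but 1.77 and 2.34 against 4.33 and 4.18 in silique (limma interaction adjusted p = 0.0272, but 0.0773 with limma voom on recovered fragments and 0.0966 with a pseudocount of 0.1). BnaC02g40850D, a root gene, had 11.6 and 10.5 in 2063A root and 20.3 and 20.3 in B409 root, a smaller gap than most root-expressed members showed. BnaC02g35130D, near the first edge, was higher in 2063A flower bud, with 22.5 and 23.1 against 5.90 and 5.34, while its silique values, 0.332 and 0.882 against 0.964 and 0.765, overlapped.

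The 3 members called higher on the mean over tissues all lay between BnaC02g39910D and BnaC02g40730D. BnaC02g39910D had 0 and 2.62 in 2063A young leaf, 5.29 and 7.00 in flower bud, 21.6 and 22.1 in silique, and 33.8 and 40.4 in root, and never more than 0.797 in B409. The cultivars overlapped in young leaf and were far apart in the other tissues. Its neighbour BnaC02g39900D fell, from 178 and 188 in B409 flower bud to 21.4 and 18.0 in 2063A, and from 78.8 and 77.5 to 34.7 and 29.6 in root. The 2 neighbours moved in opposite directions, and whether reads were split between them in counting was not tested. BnaC02g40310D was higher in every tissue, with 12.01 and 23.0 in 2063A young leaf against 1.43 and 1.34, and 89.2 and 94.2 against 4.15 and 4.16 in silique, and was listed at 0 in both B409 flower bud libraries. BnaC02g40730D had 14.1 and 16.0 in 2063A root against 0.675 and 0.647 in B409. The mean differences of the 3 genes were 3.03 ± 0.21, 2.99 ± 0.11 and 2.40 ± 0.11.

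**Figure D5:**
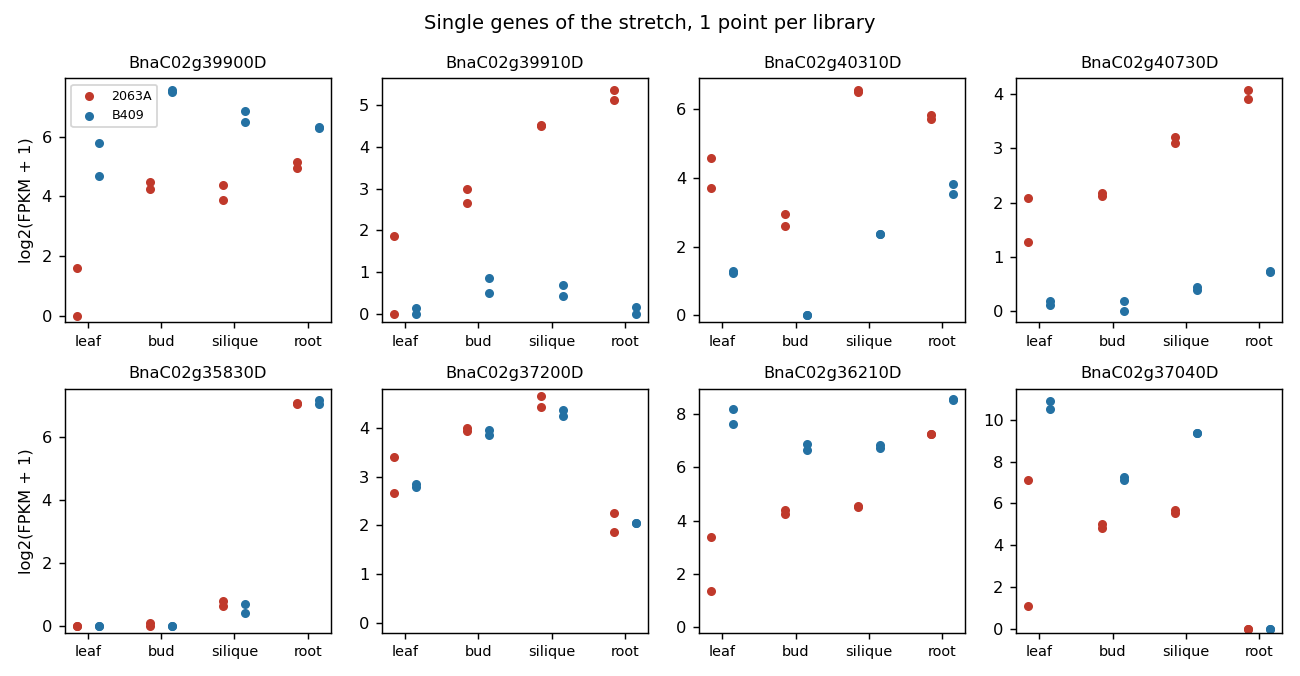
log2(FPKM + 1) (y axis) of 8 members by tissue (x axis), 1 point per library, in 2063A (red) and B409 (blue). BnaC02g39900D lies lower and its neighbour BnaC02g39910D higher in 2063A outside young leaf, BnaC02g40310D and BnaC02g40730D lie higher, BnaC02g35830D and BnaC02g37200D lie close together in the cultivars, and BnaC02g36210D and BnaC02g37040D lie lower, with the last at 0 in root in both cultivars.

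The filter on low values left some genes just outside. BnaC02g42050D was just inside it, with 1.65 and 1.10 in 1 flower bud and 1 silique library of B409 and 0 in all 8 libraries of 2063A. BnaC02g39680D was just inside with 1.01 and 1.42 in 2063A flower bud and at most 0.0412 in B409. Just outside were BnaC02g36440D, with 0.991 and 1.07 in B409 root against 0.474 and 0 in 2063A root, and BnaC02g38670D, with 1.54 and 0.553 against 0.982 and 0.530. Of the 291 members, 27 reached FPKM 1 in exactly 2 libraries and 17 in all 16. Over the 271 members with recovered fragments, the highest library of a member held a median of 155 fragments.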

How the data were processed

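The authors deposited 1 table of FPKM per library, and per the submitters' processing notes Trimmomatic, TopHat2 and Cufflinks 2.1.1 were used; their settings, the genome build and the annotation were not given in the sources used here. The members and the lists were chosen with earlier results of these data known. Values were tested as log2(FPKM + 1) with limma 3.58.1 in R 4.3.3 (8 group means, eBayes with trend, residual df of 8), two-sided, over the 54206 genes with FPKM of 1 or more in at least 2 libraries, with Benjamini-Hochberg adjustment; the fit was tested on simulated data. The contrast of 1 tissue's cultivar difference with that of the other 3, the tissue contrasts within 2063A, limma voom and the leaf ratios without 2063A young leaf replicate 1 were added after the data had been seen.

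FPKM steps among low values gave each library's relative depth (1 to 2.76), and whole fragments fitted within 0.02 of a fragment for 93.2% of tested genes (271 of 291 members), as the smallest whole numbers that fit. With depths exchanged between libraries the share was 0.1%. The recovered fragments summed to between 4201641 and 12429833 per library, and precision is limited mainly for members near 0.

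Genes named were the 8 largest falls among called members, those called higher, the 5 smallest interaction p, the 5 most abundant with a difference under 0.25, the 3 highest in each B409 tissue, the leading tissue genes, the 3 at each side of each edge and those next to the filter. BnaC02g34570D, BnaC02g34580D and BnaC02g34700D were named after their values were seen. The RefSeq gene table used here carries no product names or sequences, so product lists, tissue markers and A02 partner genes were not analysed here.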

Additional observations from a re-analysis of the deposited data

Results flagged for a closer look

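For 25 of the 37 members that the naming rule gave, the limma interaction test found that the cultivar difference depended on tissue, at an adjusted p below 0.05, which 20.9% of all tested genes passed. Of these, 5 were named for the smallest interaction p. Recovered fragments existed for 21 of the 25, and limma voom called 11 of them; over all members it called 93 of the 161 interaction genes with fragments. Among the genes with the largest falls, the adjusted p was 0.0484 for BnaC02g38620D, 0.00456 for BnaC02g39140D, 0.00157 for BnaC02g36140D, 0.00224 for BnaC02g36210D and 0.0172 for BnaC02g39900D. Among those called higher it was 0.00118 for BnaC02g39910D, 0.00407 for BnaC02g40310D and 0.0053 for BnaC02g40730D.

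The smallest values belonged to genes of 1 tissue, 9.74e-09 for BnaC02g36890D, 1.73e-08 for BnaC02g39020D, 1.96e-08 for BnaC02g38990D, 5.41e-08 for BnaC02g40480D and 1.33e-07 for BnaC02g39320D. Other tissue genes had 0.000107 (BnaC02g38230D), 0.0174 (BnaC02g40120D), 0.000575 (BnaC02g40420D), 6.85e-05 (BnaC02g35130D) and 0.014 (BnaC02g39800D).

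Of the genes near 0 over the tissues, BnaC02g40850D had 0.00773 and BnaC02g39460D 0.0272. At the edges and the filter the limma adjusted p was 0.00368 for BnaC02g34860D, 0.0287 for BnaC02g35000D, 0.00313 for BnaC02g42100D, 0.0209 for BnaC02g42110D and 0.0325 for BnaC02g39680D.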

How the results depend on the processing

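No median difference of the members given here changed sign under the alternatives run. The 4 young leaf libraries taken alone gave 0 members called lower in 2063A by limma in place of 170 (164 at an unadjusted p below 0.05). Members called higher over the tissues were 9 with a pseudocount of 0.1 and 8 with limma voom, not 3. The pseudocount gave 4376, not 2056, over all genes, still the larger share. Interaction calls were 115 with that pseudocount and 83 with FPKM of 1 required in 8 libraries. With a pseudocount of 0.1, the stricter filter and limma voom in turn, the median log2 difference was -3.12, -1.87 and -4.12 for young leaf, -2.25, -1.75 and -2.64 for flower bud, -2.51, -1.76 and -2.67 for silique, -1.38, -1.14 and -1.47 for root, and -2.37, -1.65 and -2.91 over the tissues. Over both cultivars, with the pseudocount and limma voom, 164 and 167 members were lower in young leaf (37 with quantile normalization, 59 in the report's setting; over all tested genes 21975, 19264, 5750 and 11122), 79 and 79 higher and 62 and 55 lower for flower bud, 42 and 55 higher and 45 and 29 lower for silique, and 117 and 123 higher and 58 and 47 lower for root. Counts over all genes moved too, and whether the members' share lay above or below theirs turned for several. For young leaf lower it was 20.3% against 20.5% in the report's setting, but 56.4% against 40.5% with the pseudocount. Flower bud had 12.7% against 14.1% higher and 8.59% against 9.28% lower in the report's setting. Both turned with the pseudocount (27.1% against 25.7% higher, 21.3% against 18.2% lower) and with limma voom (29.2% against 27.4% higher, 20.3% against 16.01% lower). Silique had 7.56% against 9.34% higher, which turned with limma voom (20.3% against 18.2%) but not the pseudocount (14.4% against 16.7%). It had 3.78% against 5.61% lower, which turned with the pseudocount (15.5% against 13.9%) but not limma voom (10.7% against 10.96%). Root turned with neither. It had 23.02% against 18.7% higher, 40.2% against 24.7% with the pseudocount and 45.4% against 24.3% with limma voom. For root lower these were 8.93% against 14.9%, 19.9% against 24.4% and 17.3% against 23.5%. With the stricter filter, 11 were higher for young leaf, 21 higher and 12 lower for flower bud, 13 higher and 2 lower for silique and 37 higher for root, and within B409 19, 32, 16 and 20 were higher for young leaf, flower bud, silique and root. Under the stricter filter 43 members had a smaller and 2 a larger fall in root, against 587 and 803 of those genes. With limma voom 4 members had a larger fall. The stricter filter tests fewer genes, and the cause of the other shifts was not tested.

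Leaving out 1 library at a time kept each count given here within 1.5 times its value. Members called lower in 2063A numbered 156 to 173 for young leaf, 166 to 180 for flower bud, 167 to 181 for silique, 113 to 123 for root and 165 to 175 over the tissues, with 3 to 4 higher. Interactions numbered 131 to 196, smaller falls in root 52 to 76 and larger ones 10 to 14. Over both cultivars, members higher and lower than in the other tissues numbered 15 to 20 and 51 to 69 for young leaf, 36 to 41 and 24 to 28 for flower bud, 20 to 24 and 10 to 12 for silique, 63 to 70 and 25 to 27 for root, and those higher within B409 29 to 39 for young leaf, 56 to 64 for flower bud, 30 to 38 for silique, 53 to 59 for root. The median difference ran from -1.36 to -1.22 for young leaf, from -1.33 to -1.28 for flower bud, from -1.43 to -1.30 for silique, from -0.89 to -0.85 for root and from -1.17 to -1.12 over the tissues.

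Same-numbered libraries do not pair by the labels, and the correlation of their deviations was 0.33 for young leaf, -0.04 for flower bud, 0.04 for silique and -0.01 for root. With a replicate block within tissue, 170 members were still called lower over the tissues, 62 had a smaller fall for root and 146 an interaction. Alternatives that needed A02 partners or product lists were not run.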
